A study of Homo sapiens with 6 samples.

Results

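The tumour necrosis factor (TNF) superfamily comprises cytokine ligands and the receptors that bind them. Its genes were followed here across 6 microarrays of SAS, a human cell line established from an oral squamous cell carcinoma. Members were taken by gene symbol: probe sets annotated to exactly 1 gene whose symbol follows the TNFSF or TNFRSF numbering, together with TNF, LTA, LTB, LTBR, FAS, FASLG, CD40, CD27, CD70, EDA, EDAR and EDA2R. A probe set is a group of short probes on the array that together report 1 transcript. This gave 42 genes with 89 probe sets, of 19775 genes with 41091 single-gene probe sets on the array. CD40LG, TNFSF12 and TNFRSF6B had no probe set annotated to them alone and were not analysed here, nor were 10 family probe sets shared by several genes. Superfamily genes with other symbols, such as NGFR, lay outside the rule.

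All 6 samples were SAS cells transfected with an siRNA, grown for 2 days and then kept for 48 h in medium without serum. The siCtrl group received control siRNA and DMSO (2 arrays), and the siCYLD group received siRNA against CYLD and DMSO (2 arrays); both are called untreated below. The remaining groups, siCtrl + ALK5 inhibitor and siCYLD + ALK5 inhibitor, had in place of DMSO a compound that blocks ALK5, the kinase of the type I receptor for TGF-β (1 array each). The labels name neither the inhibitor compound nor the siRNA sequences, and all values come from this 1 cell line.

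TNF superfamily ligands are mostly trimeric membrane proteins, some of them shed in soluble form, and they act by clustering receptors on the same or neighbouring cells. Receptors with a cytoplasmic death domain recruit adaptors such as TRADD or FADD and can start caspase-dependent death, whereas the other receptors bind TRAF adaptors and signal to NF-κB and MAP kinases. Decoy receptors bind ligand without a full signalling tail. CYLD is a deubiquitinase that removes ubiquitin chains from components of TNF receptor complexes. In squamous epithelia, members such as FAS, the TRAIL receptors and TNFRSF12A are known from studies of cell death, wound repair and inflammation.

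RefSeq promoter sequences were matched for 28 of the 42 genes, 4 of them among the 7 members that differed between the untreated groups. These 4 are shown, followed by LTB, the gene of lymphotoxin beta, which lies beside TNF in the genome and was higher with the inhibitor in siCYLD cells. Each is the 250 bases before an annotated transcript start in GRCh38.p14, written 5′ to 3′ on the gene's strand. The stretches are chr1:7940840-7941089 (minus strand) for TNFRSF9, chr9:114792531-114792780 (minus) for TNFSF15, chr17:7558032-7558281 (plus) for TNFSF13, chr12:6383912-6384161 (plus) for LTBR and chr6:31582425-31582674 (minus) for LTB. Capitals mark matches, on either strand and with overlaps allowed, to GGG and TTCC with any 3 bases between them (κB-type), TGANTCA (AP-1-type) or CAGACA (SMAD-type).
TNFRSF9: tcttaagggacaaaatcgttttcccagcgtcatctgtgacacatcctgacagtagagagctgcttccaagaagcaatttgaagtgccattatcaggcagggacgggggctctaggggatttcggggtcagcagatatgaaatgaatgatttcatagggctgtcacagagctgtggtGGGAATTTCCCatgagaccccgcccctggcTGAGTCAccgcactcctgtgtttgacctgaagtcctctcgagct
TNFSF15: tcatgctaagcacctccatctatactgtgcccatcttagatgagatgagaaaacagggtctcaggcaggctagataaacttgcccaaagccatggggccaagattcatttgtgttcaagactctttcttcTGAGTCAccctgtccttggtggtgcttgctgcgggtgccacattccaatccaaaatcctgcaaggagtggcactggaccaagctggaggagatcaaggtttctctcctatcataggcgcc
TNFSF13: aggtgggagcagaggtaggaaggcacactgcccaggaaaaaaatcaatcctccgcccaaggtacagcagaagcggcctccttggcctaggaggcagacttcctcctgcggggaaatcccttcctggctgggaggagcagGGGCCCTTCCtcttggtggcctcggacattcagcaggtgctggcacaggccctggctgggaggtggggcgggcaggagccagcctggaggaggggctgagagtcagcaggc
LTBR: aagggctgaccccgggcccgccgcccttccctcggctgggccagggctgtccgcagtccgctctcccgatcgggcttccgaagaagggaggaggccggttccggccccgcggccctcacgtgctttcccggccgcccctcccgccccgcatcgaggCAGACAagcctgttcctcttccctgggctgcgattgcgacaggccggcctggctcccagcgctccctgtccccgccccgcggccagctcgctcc
LTB: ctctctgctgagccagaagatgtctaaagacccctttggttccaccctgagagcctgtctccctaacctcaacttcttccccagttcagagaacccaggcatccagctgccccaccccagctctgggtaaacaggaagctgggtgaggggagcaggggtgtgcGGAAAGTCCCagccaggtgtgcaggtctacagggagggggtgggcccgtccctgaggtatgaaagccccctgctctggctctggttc

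In the TNFRSF9 stretch, κB-type matches on both strands overlapped and began 74 and 73 bases before the start, with an AP-1-type match 44 bases before it. The TNFSF15 stretch held an AP-1-type match at 120 bases and no κB-type match. TNFSF13 had a κB-type match at 111 bases before this start, and the same length before its second annotated start had none. LTBR had a SMAD-type match at 94 bases and LTB a κB-type match at 87 bases. Over the 35116 promoters in the table, 5.67% held a κB-type, 6.57% an AP-1-type and 13.6% a SMAD-type match in the same window. Among the 38 windows of member genes, some of which overlap, 5 held a κB-type, 7 an AP-1-type and 4 a SMAD-type match. A match says only that these letters occur in the window. Other spellings of such sites were not searched for, so unmarked letters may hold them.

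Values are MAS5 signals, a linear brightness per probe set. Differences are on the scale log2(signal + 16.06), which understates changes of low signals, and are given ± SE. For 2 arrays the labels conflict: the array titled siCYLD replicate 1 carries a source name for control siRNA, and for siCtrl replicate 2 the source name gives CYLD siRNA. Groups follow the titles. Nothing in the labels states whether duplicates came from separate cultures, so a p-value reflects only how far these arrays spread, which may be technical, and having so few arrays limits the precision. In such bulk RNA, fewer cells of a type and less RNA per cell cannot be told apart. Fits that leave out an untreated array, or that use the replicate number as a block, have less left to estimate the spread between arrays. A call gained in such a fit is not read as firmer than the main fit.

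CYLD, the target of the siRNA, was measured first. Its representing probe set read 411 and 500 on the siCtrl arrays, 278 and 230 on the siCYLD arrays, 349 with siCtrl + ALK5 inhibitor and 176 with siCYLD + ALK5 inhibitor. All siCYLD arrays were lower than all siCtrl arrays, by -0.80 ± 0.18 in the untreated groups (limma, Benjamini-Hochberg adjusted p = 0.0065). Of the 7 CYLD probe sets 4 passed the expression filter, and the others of these gave -2.21, -1.24 and -0.70. Both arrays with conflicting labels read on the side of their titles. The median signal per array ran from 73.4 to 84.8. The ratio of the ACTB probe sets at the 3′ and 5′ ends of the transcript, a measure of RNA integrity, was 3.21 to 3.67 on the 3 siCtrl arrays and 2.26 to 2.48 on the 3 siCYLD arrays, so it moved with the siRNA. The same ratio for GAPDH did not, at 1.79 to 2.14 on the siCtrl arrays and 1.80 to 1.97 on the siCYLD arrays, ranges that overlap. The median log2 signal of the poly-A spike-in controls also moved with the siRNA. It was 9.47 to 9.56 on the siCtrl arrays and 9.63 to 9.94 on the siCYLD arrays. The part of the ACTB ratio and of the spike-in signal in the siRNA differences below was not tested.

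The cells were checked against markers. EPCAM read 20200 to 21200 and CDH1 12600 to 15200 on the untreated arrays, and the 9 epithelial and squamous markers on the array summed to 75600 to 77500 in siCtrl and 96200 to 96900 in siCYLD. That gap lay largely in LAMB3, the gene of a laminin chain, at 20800 and 19500 in siCtrl against 39900 and 40500 in siCYLD, whereas the desmosomal gene DSG3 was lower in siCYLD (-0.64, limma adjusted p = 0.0022). CDH1 (-0.23) and KRT5 (-0.32) were not called. The squamous marker KRT14 read 62.3 to 148 on the 6 arrays, and PKP1 read 6.88 to 45.5 by its brightest probe set and 3.75 to 85.7 by the one that passed the filter. The 11 lymphocyte markers summed to 636 to 880 in siCtrl and 732 to 841 in siCYLD, ranges that overlap. On the 6 arrays PTPRC, the pan-leukocyte phosphatase, read 4.16 to 42.3, whereas CD8A read 207 to 379 and CD79A 110 to 205. Fibroblast markers (7 on the array) summed to 735 to 822 in siCtrl and 838 to 898 in siCYLD. Their part in the differences below was not tested.

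Of the 42 genes, 25 had a probe set past the expression filter, which asked that at least 1 group mean exceed a signal of 79.33. Of these, 17 passed in all 4 groups, while TNFRSF19, TNFSF10 and TNFSF14 passed in 1 group alone, and TNFSF18 and TNFSF4 in 2. The other 17 genes, with 32 probe sets, never read above 102 on any array and were not tested. They were the ligand genes TNF, LTA, FASLG, EDA, TNFSF8, TNFSF11 and TNFSF13B, the decoy receptors TNFRSF10C and TNFRSF11B, and CD27, EDA2R, TNFRSF1B, TNFRSF4, TNFRSF8, TNFRSF13B, TNFRSF13C and TNFRSF17. TNF itself read 44.7 and 22.8 in siCtrl, 29.7 and 74.6 in siCYLD, 25.9 with siCtrl + ALK5 inhibitor and 42.9 with siCYLD + ALK5 inhibitor. The groups overlap, and at these signals no difference in TNF transcript was detectable. Closest to the filter were TNFRSF13C (highest group mean 78.6) and EDA2R (75.2) below it, and TNFSF4 (91.2) and TNFSF14 (97.0) above it.

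The first comparison asks what CYLD knockdown did to these genes without the inhibitor. Of the 25 tested members, 7 were higher in siCYLD and 0 lower: the ligands TNFSF15, TNFSF13 and CD70, the death-domain receptor TNFRSF10A, the decoy receptor TNFRSF10D, and the receptors TNFRSF9 and LTBR. This was 28% of the tested members, beside 21.3% of all 12935 genes called in either direction (9.49% higher and 11.8% lower). At an unadjusted p below 0.05 there were 8 (32%, beside 34.2% of all genes). All 7 passed the filter in every group. The median difference of the tested members was 0.17, against -0.04 for all genes. The arrays of both untreated groups did not overlap for 14 of the 25 members (56%), beside 60.9% of all genes.

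**Figure D1:**
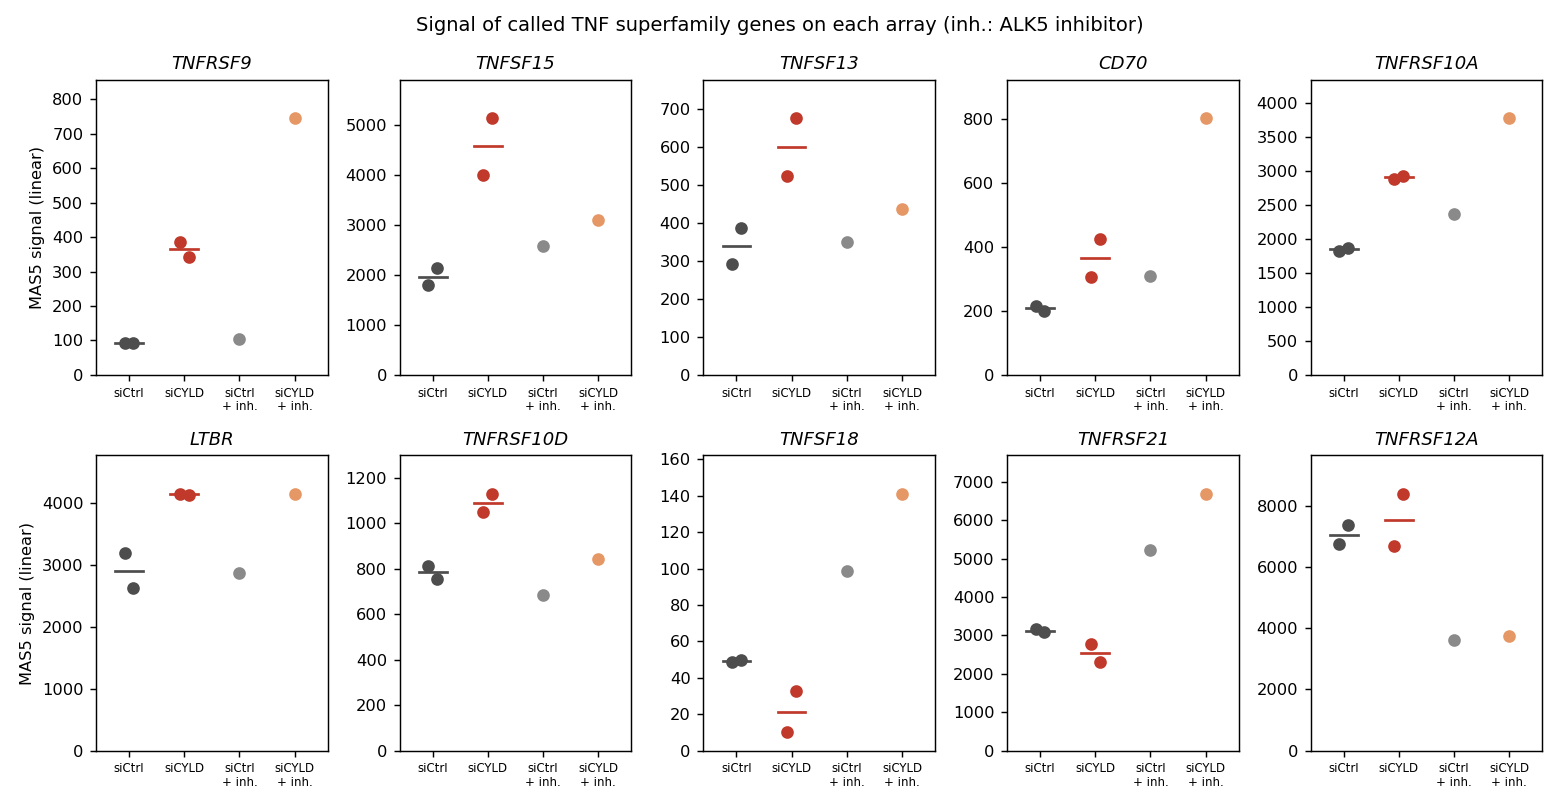
MAS5 signal (linear axis from 0) of the 10 members called in the knockdown comparison or in the inhibitor comparison across both siRNAs, 1 point per array, with a line at the mean of each pair of untreated arrays. TNFRSF9 sits at 91.3 and 92.7 in siCtrl against 385 and 343 in siCYLD, and TNFRSF12A falls to 3610 and 3730 with the inhibitor.

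TNFRSF9 showed the largest difference among the tested members. It encodes CD137, a costimulatory receptor best known on activated T cells. Its signal was 91.3 and 92.7 in siCtrl, 385 and 343 in siCYLD, 105 with siCtrl + ALK5 inhibitor and 745 with siCYLD + ALK5 inhibitor. All 3 siCYLD arrays lay above all 3 siCtrl arrays. The untreated difference was 1.81 ± 0.19 (limma adjusted p = 2.3e-05), a 3.96-fold ratio of mean signals. All 3 probe sets of the gene passed the filter and all 3 were called higher, at 1.81, 1.56 and 1.14. In the inhibitor pair, siCYLD exceeded siCtrl by 2.65. The gene of its ligand, TNFSF9, differed by 0.00 ± 0.33 and read 70.3 to 124 over all arrays.

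TNFSF15 encodes TL1A, a ligand of the death-domain receptor DR3. It read 1790 and 2140 in siCtrl against 4000 and 5130 in siCYLD, with 2570 and 3100 on the siCtrl and siCYLD arrays with inhibitor. Both untreated siCYLD arrays were the highest of the 6. The difference was 1.20 ± 0.13 (limma adjusted p = 2.4e-05), and in the inhibitor pair it was 0.27. Its other probe set gave 0.77 and was not called (adjusted p = 0.086 over all kept probe sets). TNFRSF25, the gene of DR3, differed by -0.11 ± 0.14 and was not called.

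TNFSF13, which encodes the B-cell survival factor APRIL, read 291 and 386 in siCtrl, 524 and 676 in siCYLD, 349 with siCtrl + ALK5 inhibitor and 436 with siCYLD + ALK5 inhibitor. The untreated groups did not overlap, and the difference was 0.80 ± 0.18 (limma adjusted p = 0.0062). It rests on 1 probe set, since the gene's other probe sets are shared with the TNFSF12-TNFSF13 read-through gene. Genes of its receptors, TNFRSF13B and TNFRSF17, did not pass the filter.

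CD70, the gene of the CD27 ligand, read 217 and 201 in siCtrl, 305 and 424 in siCYLD, 310 with siCtrl + ALK5 inhibitor and 803 with siCYLD + ALK5 inhibitor. In each treatment the siCYLD arrays were higher. The untreated difference was 0.74 ± 0.18 (limma adjusted p = 0.011), and without siCYLD replicate 2 it was 0.51 and not called. In the inhibitor pair it was 1.33. CD27 itself read 8.40 to 74.3 and was not tested.

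The remaining ligand genes were not called. LTB read 116 and 104 in siCtrl against 95.5 and 44.6 in siCYLD, a difference of -0.61 ± 0.33 (limma adjusted p = 0.22), and its second probe set gave -0.14. Leaving out 1 siCYLD array moved it widely, to -1.05 and called without replicate 1 and to -0.17 and not called without replicate 2. TNFSF18, the gene of the GITR ligand, differed by -0.86 ± 0.45, TNFSF4, that of the OX40 ligand, by -0.34 ± 0.35, TNFSF10, that of TRAIL, by -0.26 ± 0.40 and TNFSF14, that of LIGHT, by 0.57 ± 0.55. All 4 had signals of 141 or less on every array. Over the 9 tested ligand genes 3 were called higher and 0 lower, with a median difference of 0.00, beside 9.49% of all genes higher and 11.8% lower.

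All 7 genes of death-domain receptors were tested, and 1 was called, beside 21.3% of all genes called in either direction. TNFRSF10A, which encodes the TRAIL receptor DR4, read 1830 and 1870 in siCtrl, 2890 and 2930 in siCYLD, 2370 with siCtrl + ALK5 inhibitor and 3780 with siCYLD + ALK5 inhibitor. The siCYLD arrays were higher in each treatment and the duplicates lay close together. The untreated difference was 0.65 ± 0.10 (limma adjusted p = 0.00044), with 0.67 in the inhibitor pair. Of the remaining probe sets, 1 gave 0.91 and was called, and 1 gave 0.33 and was not.

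The other TRAIL death receptor, TNFRSF10B, read 11000 and 10900 in siCtrl against 11700 and 12800 in siCYLD, a difference of 0.17 ± 0.08 that was not called (limma adjusted p = 0.19). TNFRSF10D, a TRAIL receptor with a truncated death domain, read 814 and 755 in siCtrl, 1050 and 1130 in siCYLD, 686 with siCtrl + ALK5 inhibitor and 843 with siCYLD + ALK5 inhibitor. The untreated groups did not overlap, with a difference of 0.47 ± 0.12 (limma adjusted p = 0.017), and siCYLD exceeded siCtrl by 0.29 in the inhibitor pair. Its call was lost without siCtrl replicate 2 (0.42) and without siCYLD replicate 2 (0.42). TNFRSF10B, TNFRSF10C, TNFRSF10D and TNFRSF10A follow each other in the genome with 0 protein-coding genes between neighbours. TNFRSF10C, the decoy between TNFRSF10B and TNFRSF10D, did not pass the filter.

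TNFRSF1A, the main TNF receptor of most cells, read 5860 and 5730 in siCtrl against 5210 and 5630 in siCYLD, a difference of -0.10 ± 0.09. FAS, the receptor of FAS ligand, differed by -0.13 ± 0.18 and the ectodysplasin receptor EDAR by 0.19 ± 0.34. TNFRSF21, which encodes DR6, read 3160 and 3080 in siCtrl against 2780 and 2310 in siCYLD. These groups did not overlap, but the difference of -0.30 ± 0.11 missed the threshold (limma adjusted p = 0.065). Without siCYLD replicate 1 it was -0.43 and called, and without replicate 2 it was -0.17 and not called. With the replicate number as a block it was -0.30 and called (limma adjusted p = 0.024), and in the additive model it was -0.08 and not called.

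LTBR, the lymphotoxin beta receptor that feeds the non-canonical NF-κB pathway, read 3190 and 2630 in siCtrl, 4150 and 4140 in siCYLD, 2870 with siCtrl + ALK5 inhibitor and 4150 with siCYLD + ALK5 inhibitor. All siCYLD arrays were higher than all siCtrl arrays. The difference was 0.52 ± 0.11 (limma adjusted p = 0.0045), with 0.53 in the inhibitor pair. A second probe set of lower signal gave 0.21 and was not called, and the mean of both probe sets (0.36) was not called. LTBR lies between TNFRSF1A and CD27 in the genome, with 1 protein-coding gene between it and TNFRSF1A and 0 between it and CD27. TNFRSF1A was not called and CD27 did not pass the filter.

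The other receptor genes without a death domain were not called. CD40 differed by 0.02 ± 0.20, TNFRSF12A, the gene of the TWEAK receptor Fn14, by 0.09 ± 0.11 and TNFRSF14, that of the herpesvirus entry mediator HVEM, by -0.06 ± 0.17. TNFRSF18, the gene of GITR, differed by 0.36 ± 0.22, TNFRSF11A, that of RANK, by 0.23 ± 0.33 and TNFRSF19, that of the orphan receptor TROY, by 0.42 ± 0.54. Over the 8 tested receptor genes without a death domain 2 were called higher, beside 9.49% of all genes, with a median difference of 0.29.

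**Figure D2:**
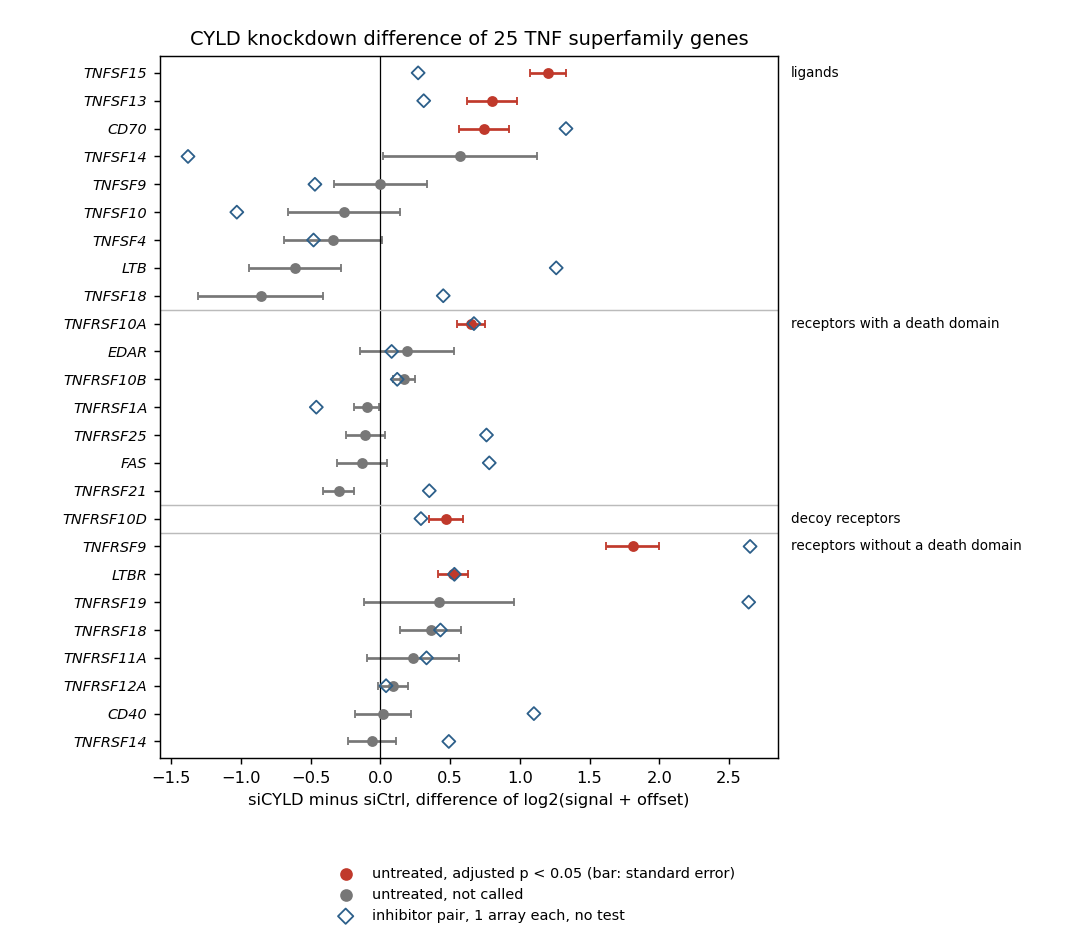
Difference siCYLD minus siCtrl on the scale log2(signal + offset) for the 25 tested members, grouped by role. Filled points are the untreated duplicates with SE bars (red where the adjusted p is below 0.05), and open diamonds are the inhibitor pair, 1 array each; TNFRSF9 stands at 1.81 and 2.65, and the 7 red points all lie right of 0.

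The conflicting labels bear on these calls. By title the untreated duplicates correlated at Pearson r = 0.9867 (siCtrl) and 0.988 (siCYLD), against 0.9636 to 0.9661 for untreated arrays of different titles. In an additive model without both arrays whose labels conflict, 4 of the 7 members were still called, and TNFSF13 (0.74), LTBR (0.45) and TNFRSF10D (0.38) kept their direction without a call. Grouping by source name instead puts 1 array of each title into both untreated groups, and then 0 members were called (0 at an unadjusted p below 0.05 by limma).

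Genes that act downstream of the receptors were described by lists, beside 9.49% of all genes called higher and 11.8% called lower in this comparison. Of 19 tested genes known to be induced by TNF, 15 were higher in siCYLD and 0 lower, with a median difference of 1.10. Of the 15, 1 passed the filter only through the untreated siCYLD group (PTGS2, named after its value was seen). CXCL8 passed only through the siCYLD groups, untreated and with inhibitor, so its value is a description. It read 60.2 and 38.1 in siCtrl and 41.8 with siCtrl + ALK5 inhibitor, against 277 and 209 in siCYLD. CXCL8 (2.00) and CXCL2 (1.75), which encode neutrophil chemokines, and TNFAIP3 (1.63), which encodes the ubiquitin-editing enzyme A20, differed most. This list overlaps the NF-κB targets and is not independent of earlier results of these data. Of 24 tested genes for adaptors and enzymes at the receptors, 5 were higher and 1 lower, with a median of 0.07. Beside the shares over all genes, nothing is read from this list's count. The 5 were TRAF1 (1.37), an adaptor of TNFRSF9 and other receptors, TNIP1 (0.99) and TNIP2 (0.36), which encode A20-binding inhibitors, TRAF3 (0.74), an inhibitor of non-canonical NF-κB signalling, and RBCK1 (0.37), which encodes HOIL-1, a subunit of the linear ubiquitin ligase. TRAF3IP2, the adaptor of the IL-17 receptor, was lower (-0.55). TNIP2 was named after its value was seen, as was RBCK1 in this comparison.

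Of 18 tested genes for death effectors and their inhibitors, 1 was higher and 2 were lower, with a median of -0.02. For this list and the next, nothing is read from the counts beside 9.49% of all genes higher and 11.8% lower. MLKL, the executor of necroptosis, was higher (0.46), and APAF1 (-0.82), which forms the apoptosome, and FAF1 (-0.36), a FAS-associated protein, were lower. Of 11 genes for proteases that shed ligands and receptors and for their regulators, 2 were higher and 2 lower. RHBDF2 (0.88), which encodes a partner of the TNF sheddase ADAM17, and the protease gene ADAM8 (0.64) were higher, and TIMP3 (-1.88), which encodes an inhibitor of ADAM17, and ADAM9 (-0.40) were lower. TIMP3 read 3000 and 3250 in siCtrl against 778 and 897 in siCYLD.

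The second comparison asks what the ALK5 inhibitor did. Across both siRNAs, in a model with siRNA as a term, 4 of the 25 members were higher with the inhibitor (TNFRSF21, CD70, TNFRSF10A and TNFSF18) and 1 was lower (TNFRSF12A). This was 20% of the tested members and likewise 20% of all genes (11.2% higher and 8.82% lower), and at an unadjusted p below 0.05 there were 11 (44%, beside 34.1%). TNFSF18 passed the filter only through the inhibitor arrays where it was high, so 3 higher and 1 lower were left without it; over all genes 3.02% of the calls had passed in that way. Leaving out the siCtrl + ALK5 inhibitor array raised the count from 5 to 12, and without the siCYLD + ALK5 inhibitor array, or without either untreated siCYLD array, it was 3. The median difference was -0.01 for the members and 0.01 for all genes. Inhibitor and untreated arrays did not overlap for 4 of 25 members (16%), beside 30.1% of all genes: TNFRSF12A, TNFRSF21, TNFSF18 and TNFRSF10B.

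TNFRSF12A read 6750 and 7360 in siCtrl against 6690 and 8390 in siCYLD, but 3610 with siCtrl + ALK5 inhibitor and 3730 with siCYLD + ALK5 inhibitor. Both inhibitor arrays were below all 4 untreated arrays. The difference was -0.98 ± 0.11 (limma adjusted p = 0.00023), and it was -0.96 within siCtrl and -1.0 within siCYLD, both called. The gene has 1 probe set.

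TNFRSF21 went the other way. It read 5240 with siCtrl + ALK5 inhibitor and 6690 with siCYLD + ALK5 inhibitor, against 2310 to 3160 on the 4 untreated arrays. The difference was 1.07 ± 0.14 (limma adjusted p = 0.00073), and its second probe set gave 1.08. Within siCtrl it rose by 0.74 ± 0.13 (adjusted p = 0.0038) and within siCYLD by 1.39 ± 0.13 (adjusted p = 1.2e-05). The difference between these values, 0.65 ± 0.19, was not called (adjusted p = 0.12), although without siCYLD replicate 1 it was 0.78 and called.

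CD70 was higher by 0.83 ± 0.18 with the inhibitor (limma adjusted p = 0.011). The difference was 0.54 within siCtrl, which was not called, and 1.12 within siCYLD, which was. Its siCtrl + ALK5 inhibitor array (310) lay within the range of the untreated siCYLD arrays. TNFRSF10A was higher by 0.36 ± 0.09 (limma adjusted p = 0.02). Its call was lost without siCYLD replicate 1 (0.36) or 2 (0.37) and without the siCYLD + ALK5 inhibitor array (0.35). CD70 without the siCYLD + ALK5 inhibitor array was 0.54 and not called.

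TNFSF18 read 48.5 and 49.5 in siCtrl, 10.1 and 32.8 in siCYLD, 98.9 with siCtrl + ALK5 inhibitor and 141 with siCYLD + ALK5 inhibitor. The inhibitor arrays were the highest, and only they passed the filter, so the gene could enter the test only by being higher there. The difference of 1.48 ± 0.44 is given as a description, with 0.82 to 2.13 over the alternatives.

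FAS was not called by its representing probe set, which read 278 and 247 in siCtrl, 254 and 225 in siCYLD, 267 with siCtrl + ALK5 inhibitor and 470 with siCYLD + ALK5 inhibitor (0.48 ± 0.21, limma adjusted p = 0.13). Of its 4 kept probe sets, 2 others were called, at 1.03 and 1.01. The first of these read 112 to 150 untreated and 237 and 315 with the inhibitor, and the second 80.2 to 101 untreated and 186 and 216 with it. For both, each inhibitor array was above every untreated array, so the probe sets of this gene disagree for siCtrl cells.

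**Figure D3:**
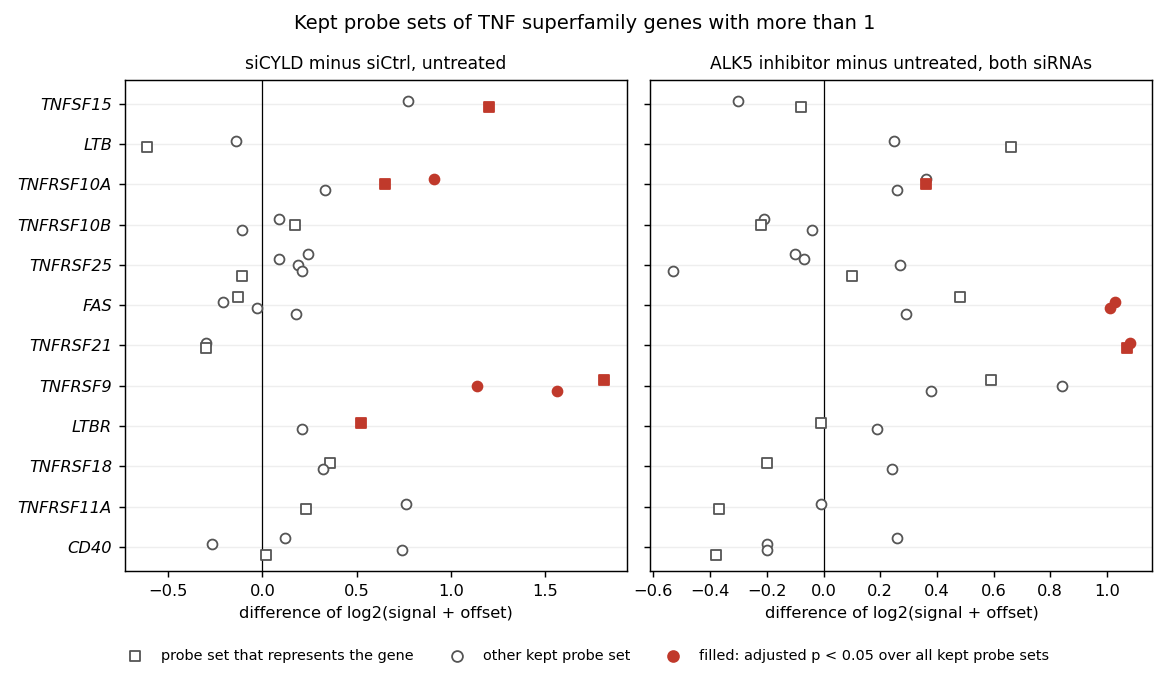
Difference on the scale log2(signal + offset) of each kept probe set of the members with more than 1, for knockdown (left) and for the inhibitor across both siRNAs (right). Squares represent the gene in the tests and filled symbols have an adjusted p below 0.05 over all kept probe sets; TNFRSF9 has 3 filled symbols on the left, FAS has 2 filled circles near 1.0 on the right and an open square at 0.48.

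Within each siRNA the inhibitor comparison sets 1 array against 2, with the lone array assumed to vary as the duplicates did. In siCtrl cells 1 member was higher and 2 lower (12% of those tested, beside 9.36% of all genes, 5.02% higher and 4.34% lower). TNFRSF21 was higher, and TNFRSF12A and CD40, a receptor best known on antigen-presenting cells, were lower. CD40 read 134 with siCtrl + ALK5 inhibitor against 288 and 249 in siCtrl, a difference of -0.92 ± 0.25 (limma adjusted p = 0.035). The array with siCYLD + ALK5 inhibitor read 305, inside the range of its untreated arrays (234 and 317). The other 3 probe sets of CD40 gave -0.21, 0.23 and 0.46 in siCtrl, and the mean over probe sets was -0.11. The call was lost without siCtrl replicate 1 (-0.82) and in 5 of 14 alternatives in all. TNFSF15 was 0.39 and not called, but was called without siCtrl replicate 2 (0.52).

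In siCYLD cells 9 members were higher and 3 lower with the inhibitor (48% of those tested, beside 22.4% of all genes, 12.2% higher and 10.2% lower), with a median difference of -0.10 against 0.02 for all genes. At an unadjusted p below 0.05 there were 15 (60%, beside 35.0% of all genes). Besides TNFRSF21, CD70, TNFRSF10A (0.38) and TNFSF18 (2.13), the higher genes were TNFRSF19, LTB, TNFRSF9, FAS (0.93) and TNFRSF25 (0.53). The lower genes were TNFRSF12A, TNFSF15 and TNFRSF1A (-0.43). TNFRSF19 and TNFSF18 passed the filter only through inhibitor arrays, TNFRSF19 through the siCYLD one alone, and without TNFRSF19 there were 8 higher and 3 lower. Those 8 still include TNFSF18, whose value is a description. Over all genes 1.52% of the calls in siCYLD cells had passed only through the group where they were high. TNFRSF25 has 5 kept probe sets, and the other 4 gave -0.07, -0.01, 0.33 and -0.08 in siCYLD cells.

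TNFRSF19 read 315 with siCYLD + ALK5 inhibitor against 6.08 to 45.6 on the other 5 arrays, so it passed the filter through that array alone and had to differ there. The fitted difference of 2.76 ± 0.67 is a description. LTB read 233 on that array against 44.6 to 116 on the others, a difference of 1.60 ± 0.41 (limma adjusted p = 0.014). Its second probe set gave 0.43, and the call was lost in 4 of 14 alternatives. TNFRSF9, already higher in siCYLD, was higher again by 1.0 ± 0.24 and called, at 745 against 385 and 343. Its other probe sets gave 1.18 and 0.69, and the call was lost in 2 of 15 alternatives.

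TNFSF15 fell in siCYLD cells by 0.55 ± 0.16 on the log2 scale (limma adjusted p = 0.027), to 3100 from 4000 and 5130. In siCtrl cells the difference was 0.39 ± 0.16 and was not called. Its interaction, the inhibitor difference in siCYLD minus that in siCtrl, was -0.93 ± 0.22 and the closest of the members to the threshold (limma adjusted p = 0.062).

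Without siCtrl replicate 1 or 2 the TNFSF15 interaction was -0.81 or -1.06, and without siCYLD replicate 1 or 2 it was -1.11 or -0.76. In each of these fits the spread between arrays rested on 1 pair of duplicates, so only the effect sizes are read. The other probe set of the gene gave -0.44 in siCtrl and -0.16 in siCYLD. Within siCYLD, calls were lost without replicate 2 for TNFSF15 (-0.37), TNFRSF1A (-0.37) and TNFRSF10A (0.38), and without replicate 1 for TNFRSF10A (0.37) and TNFRSF25 (0.44). TNFRSF14, not called at 0.58, was called without replicate 1 (0.74).

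The interaction was called for 0 of the 25 members, beside 1.67% of all genes (0.982% higher and 0.688% lower), and 9 members (36%) had an unadjusted p below 0.05, beside 13.7% of all genes (limma). The 9 were TNFSF15, LTB (1.87 ± 0.58), CD40 (1.07 ± 0.35), FAS (0.91 ± 0.31), TNFRSF21, TNFRSF25 (0.86 ± 0.25), TNFRSF9 (0.84 ± 0.34), TNFRSF1A (-0.36 ± 0.16) and TNFRSF19 (2.22 ± 0.94), which passed the filter through 1 array alone. The share of 36% depended on the probe set chosen for each gene. By the mean of probe sets 4 of 25 members had an unadjusted p below 0.05, beside 1557 of 12935 genes (limma). The CD40 interaction was then -0.04. Nothing is read from the share of 36%. With 0 interactions called, the larger number of members called with the inhibitor in siCYLD is not shown to be a difference between the siRNAs. Single arrays moved some of these values: LTB was called without siCYLD replicate 1 (2.31) and CD40 without siCYLD replicate 2 (1.28).

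**Figure D4:**
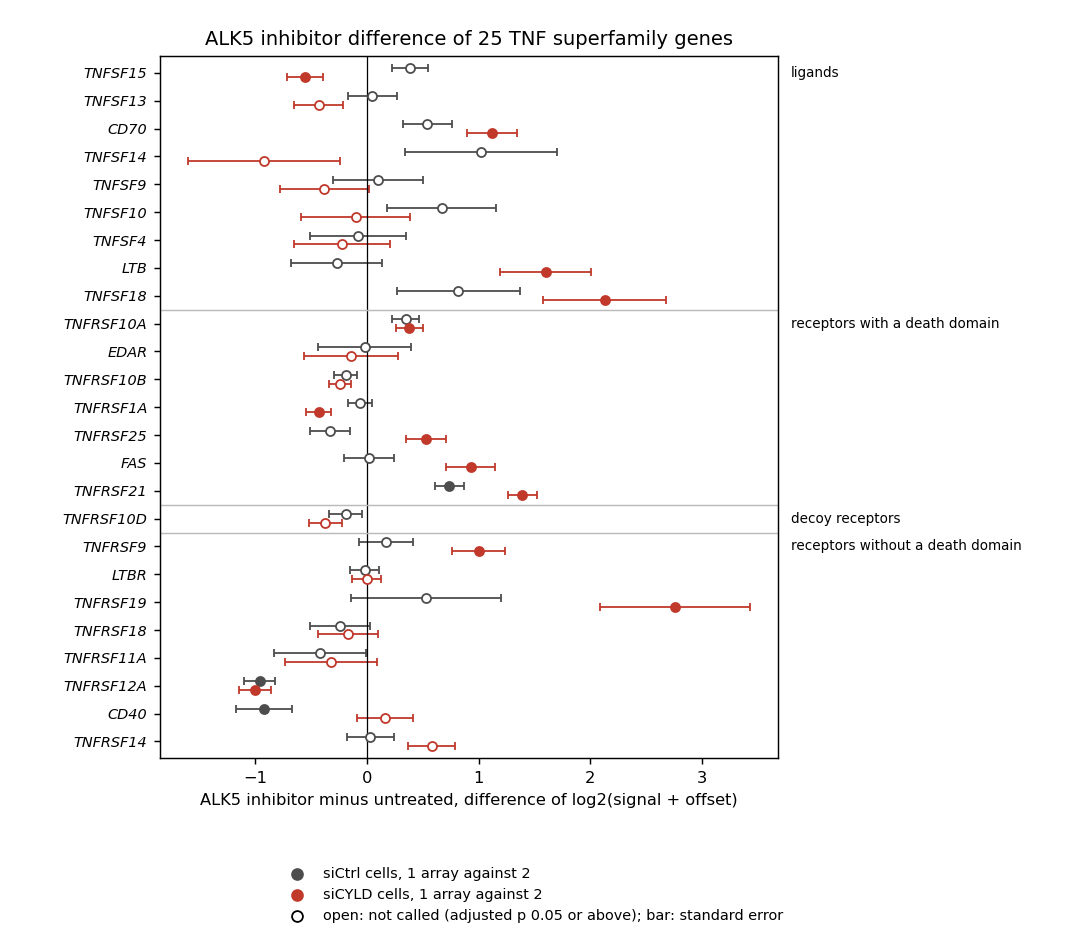
Inhibitor minus untreated difference on the scale log2(signal + offset) for the 25 tested members, in siCtrl cells (grey) and siCYLD cells (red), with SE bars; open points are not called. TNFRSF12A lies near -1 in both, TNFRSF21 at 0.74 and 1.39, and TNFRSF19 at 2.76 in siCYLD.

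Between the arrays with inhibitor, siCYLD against siCtrl, 5 members were at least 2-fold higher and 2 at least 2-fold lower, which is 28% beside 6.73% of all genes (3.91% higher and 2.81% lower). With 1 array each there is no replicate check. TNFRSF19, TNFSF14 and TNFSF10 passed the filter only through the array of this pair on which they were high, which fixed their direction, so 4 members at least 2-fold higher and 0 lower were left without them. Over all genes 21.7% of those past 2-fold had passed in that way, and nothing is read from the share of 28%. The higher genes were TNFRSF9 (2.65), TNFRSF19 (2.64), CD70 (1.33), LTB (1.26) and CD40 (1.10), and the lower ones were TNFSF14 (-1.38) and TNFSF10 (-1.03). TNFSF14 read 97.0 and 27.4 and TNFSF10 106 and 43.6 on these arrays, close to or below the filter. The probe sets that represent LTB and CD40 stood apart from their others: the second LTB probe set gave 0.23, and the other 3 of CD40 gave -0.28, -0.24 and -0.11. TNFRSF9 and CD70 were also higher in the untreated siCYLD arrays. The pair's median was 0.35 for the members and -0.01 for all genes.

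The downstream lists were read for the inhibitor too. Over all genes 11.2% were called higher and 8.82% lower across both siRNAs, and nothing is read from the number of genes called per list. Of the 19 TNF-induced genes, CCL20 (2.28) and SOD2 (0.82) were higher and CXCL2 (-0.79) was lower across both siRNAs, with a list median of 0.16. CCL20 passed the filter only through the siCYLD + ALK5 inhibitor array, at 313 against 28.3 with siCtrl + ALK5 inhibitor and 7.21 to 10 untreated, so its value is a description. Of the 24 adaptor and enzyme genes, TRAF5 (0.38) and RBCK1 (0.37) were higher, and BIRC2 (-0.43), TANK (-0.41), XIAP (-0.35) and TAB2 (-0.30, named after its value was seen) were lower. BIRC2 encodes cIAP1, a ubiquitin ligase of TNF receptor complexes. Among the 18 death effector genes, CYCS (0.62), PARP1 (0.56) and MLKL (0.51) were higher and CASP9 (-1.01), the initiator caspase of the apoptosome, was lower, at 402 and 349 with the inhibitor against 737 to 817 without it. Among the 11 sheddase genes, TIMP3 (1.99) and RHBDF2 (0.52) were higher and FURIN (-0.71), a proprotein convertase, was lower. TIMP3 read 6490 on both inhibitor arrays.

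Beside the inhibitor differences, the 9 myeloid and endothelial markers summed to 511 to 726 on the untreated arrays and to 1190 and 1060 with siCtrl + ALK5 inhibitor and siCYLD + ALK5 inhibitor. Most of that gap lay in CDH5, the endothelial cadherin, which read 5.83 to 63.0 untreated and 587 and 462 with the inhibitor, and VWF, the gene of von Willebrand factor, read 25 to 71.4 untreated and 169 on both. CLDN5 read at most 17.1 on every array, and the myeloid gene CSF1R read 113 to 178 untreated and 68.7 and 55.2 with the inhibitor. CDH5, VWF and CSF1R each passed the filter only through the arrays on which they were high. The lymphocyte markers summed to 791 and 879 and the epithelial and squamous markers to 86400 and 95100 on these arrays. Among the epithelial and squamous markers, KRT5, a basal keratin gene, was higher by 2.98 ± 0.16 (limma adjusted p = 5.3e-06), at 12500 and 5600 with the inhibitor against 900 to 1250 untreated. Of the 4 tested lymphocyte markers 1 was called, CD8A (0.54 ± 0.17, limma adjusted p = 0.044). It read 379 and 312 with the inhibitor against 207 to 258 untreated. Their part in the inhibitor differences was not tested.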

How the data were processed

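RNA of SAS cells was hybridised to 6 Affymetrix arrays, prepared from 2 µg total RNA per the labels' protocols. The authors deposited linear intensity values, 1 for each probe set on each array, made with MAS5, per the submitters' notes on processing. The MAS5 version is not given in the sources used here. After trimming 2% at each end, the mean was 500.1 on every array. Arrays carry no read depth.

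Groups followed the titles. Tests ran on log2(signal + 16.06), where the added value is the 20th percentile over the whole table. Probe sets with 1 gene symbol (41091 of 54675) were kept if the highest of 4 group means exceeded the median of all log2 values (24537 kept), and the one with the highest mean stood for its gene (12935 genes). Linear models with an intensity trend used limma 3.58.1 (R 4.3.3, data.table version 1.17.8). P-values were two-sided and adjusted by Benjamini-Hochberg over all genes, with 0.05 as the threshold for a call. Knockdown, inhibitor within each siRNA and interaction came from 4 group means (2 residual and 10.9 prior degrees of freedom), and the inhibitor across siRNAs from an additive model (3 and 7.98). The steps were tested on simulated data. Plots used matplotlib 3.10.9 (Python 3.11.15).

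Members and lists were chosen with earlier results of these data known. Every member may be named, and of each list up to 3 called genes in each direction with the largest difference in the knockdown and in the inhibitor comparison across siRNAs; further names are marked. Alternatives covered offset, filter, scaling, moderation, choice of probe set, single arrays left out, the arrays with conflicting labels and a replicate block. Same-numbered untreated arrays did not deviate together (r = 0.045 across genes, which are not independent replicates), so the numbers were not taken to pair samples. Promoter sequences and neighbouring genes are from RefSeq (GRCh38.p14).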

Additional observations from a re-analysis of the deposited data

Results flagged for a closer look

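The inhibitor difference changed with the siRNA, by the interaction test in limma, for 5 TNF-induced genes and 1 sheddase regulator, all named after their values were seen. TNFAIP3 differed most (interaction 2.01 ± 0.20, adjusted p = 0.00025): it read 668 and 610 in siCtrl and 574 with inhibitor, but 1980 and 2030 in siCYLD and 7330 with inhibitor. TIMP3 had an interaction of 1.88 ± 0.19 (adjusted p = 0.00025), at 1.05 in siCtrl and 2.93 in siCYLD. The others were CXCL1 (1.42), ICAM1 (1.04), IL6 (1.04) and TNFAIP2 (1.0), each higher with the inhibitor in siCYLD, where the difference was 0.94, 0.65, 1.04 and 0.78. In siCtrl the same differences were -0.48, -0.39, 0.00 and -0.22, none of them called. Each rests on 1 inhibitor array per siRNA, and without the intensity trend 0 genes of all tested were called for the interaction.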

How the results depend on the processing

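Scaling, offset and robust moderation left the 7 knockdown calls in place, except that TNFRSF10D missed the threshold after median centring. Median centring moved the median of all genes within siCtrl by 0.1, the largest shift of any setting. Without the intensity trend 3 members and 1219 genes were called in the knockdown, 2 and 1087 for the inhibitor across siRNAs, 0 and 35 within siCtrl, 5 and 1055 within siCYLD, and 0 genes for the interaction; TNFRSF9, TNFSF15 and TNFRSF10A kept their knockdown calls. By source name 0 members and 0 genes were called in the knockdown by limma (0 and 80 at an unadjusted p below 0.05), with LTBR at -0.14, TNFRSF9 at -0.07 and TNFRSF10D at 0. The additive model without both arrays whose labels conflict called 4 members and 963 genes in the knockdown and 1257 genes for the inhibitor; LTB was 0.07 there and 0.01 in the additive model on all arrays. With no filter, 478 genes were called within siCtrl, 7 members and 1819 genes within siCYLD and 33 genes for the interaction. The mean of the differences within each siRNA called 10 members for the inhibitor. Without probe sets whose names end in _x_at or _s_at, 7 members were called within siCYLD and 134 genes for the interaction, where median centring called 135 and the mean of probe sets 95; the stricter filter called 1 member, TNFSF15. Median centring also moved the split of all inhibitor calls from 1445 higher and 1141 lower to 1705 and 688, and within siCtrl from 649 and 562 to 641 and 251. Leaving out single arrays gave 5 to 9 members and 2111 to 2737 genes in the knockdown, 3 to 12 and 1265 to 2926 for the inhibitor (12 without the siCtrl + ALK5 inhibitor array, 3 without the siCYLD + ALK5 inhibitor array or either untreated siCYLD array), 2 to 4 and 915 to 1682 within siCtrl, 9 to 12 and 2452 to 3523 within siCYLD, and 1 to 3 and 288 to 458 for the interaction. With single arrays left out, inhibitor values that changed sign ranged from -0.92 to 0.16 for CD40, -0.27 to 1.6 for LTB, -0.33 to 0.53 for TNFRSF25 and -0.55 to 0.39 for TNFSF15, whose ends came without 1 of the inhibitor arrays, and TNFSF15 was 0.07 without siCYLD replicate 2. TNFRSF25 was -0.06 by the mean of probe sets and -0.53 without _x_at and _s_at probe sets (-0.08 within siCYLD). By the mean of probe sets TNFSF15 was -0.03 within siCtrl and the CD40 interaction -0.04. Over all alternatives that could be run, TNFRSF9, TNFSF15 and TNFRSF10A lost their knockdown call only by source name, whereas TNFRSF10D was not called in 6 of 20, LTBR in 4 of 20, CD70 in 4 of 20 and TNFSF13 in 3 of 19. The inhibitor calls of TNFRSF12A and TNFRSF21 across siRNAs held in all 18 and 19, and within siCYLD those of TNFRSF12A, TNFRSF21 and FAS held in all, while TNFRSF25 was not called in 7 of 15, TNFRSF10A in 6 of 15, TNFSF15 in 5 of 15, LTB in 4 of 14, TNFRSF1A in 3 of 14 and TNFRSF9 in 2 of 15. The causes were not tested. With the replicate number as a block, 8 members were called in the knockdown, the 7 and TNFRSF21 at -0.30, and 3716 genes in all. Of lists chosen for repetition after seeing the data, the TNF-induced genes had 16 calls with the block and 14 in the additive model without both arrays, and the adaptor list 8 and 4.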
